A study of Mus musculus with 24 samples.

Results

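The genes described here code for the extracellular matrix and the basement membrane, and were measured in HC11, an established line of epithelial cells from the mammary gland of the mouse. The list holds 48 genes in 9 roles: fibrillar collagens, basement membrane and anchoring collagens, other collagens, laminin chains, nidogens and perlecan, fibronectin and matricellular proteins, proteoglycans, elastic fibre proteins, and lysyl oxidases. A gene was found on the array through the RefSeq accessions of its probes, which gave a probe for 46 of the 48 genes, out of 20145 genes with a probe in all. No probe was matched to Col6a3 or Col12a1. Of the 46 measured genes, 26 were well above background on all 24 arrays, 16 on some arrays, and 4 (Col5a2, Nid1, Nid2 and Fbn1) on none.

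The basement membrane is the sheet on which mammary epithelium sits. It is built from laminin trimers and a network of collagen IV, linked by nidogen and perlecan, and cells hold on to it through integrins and dystroglycan. Contact with laminin is a known requirement for milk protein expression in cultured mammary epithelial cells. Fibrillar collagens, fibronectin and the small leucine-rich proteoglycans belong mainly to the connective tissue around the epithelium, and matricellular proteins such as SPARC, periostin and tenascin C act on how cells respond to the matrix.

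The study changed the level of mPINC, a long noncoding RNA of the mammary gland, and measured RNA on 24 arrays of 1 colour. Cells without lactogenic hormones (−LH) and cells treated with hydrocortisone, insulin and prolactin (+LH) received 10 nM of siRNA. It was a control sequence (siNegative), siRNAs against mPINC1.0 and mPINC1.6 (siPINC1/6), or siRNAs against all splice forms (siPINC). There were n = 2 arrays a group for −LH and n = 3 for +LH. In the study's methods insulin was also in the growth and priming media, and prolactin and hydrocortisone were added to induce differentiation. The other 9 arrays, all +LH and 3 a group, came from HC11 cells transduced with a lentivirus for GFP (LeGO-GFP), for mPINC1.0 and mPINC1.6 (LeGO-1/6), or for an mPINC form that lacks its conserved regions (LeGO-DCR). Each lentiviral line is an expanded population from 1 transduction as far as the labels tell, so its 3 arrays do not show how separate transductions vary, and the length of hormone treatment behind these arrays is not given in the labels. P-values below measure the spread between arrays of a group.

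The mPINC probe served as a check of the labels. Its mean log2 signal in −LH cells was 6.33 (siPINC1/6) and 6.28 (siPINC) against 7.44 (siNegative), a difference of −1.11 (adjusted p = 0.0366) and −1.17 (adjusted p = 0.147) by limma. In +LH cells it was 5.06 for siPINC1/6, 4.37 for siPINC and 4.87 for siNegative, and well above background on 2, 1 and 2 of the 3 arrays. The probe therefore shows no knockdown in the arrays labelled siPINC1/6 +LH, and directions given for them follow the label. It was 13.44 in LeGO-1/6 against 6.07 in LeGO-GFP and 6.06 in LeGO-DCR, so it does not check the LeGO-DCR label. Of 9 markers of mammary epithelium, 8 were well above background on all 24 arrays. Of 9 fibroblast markers this held for Pdgfra, Pdgfrb and Twist1, while Dpt and Lrrc15 were well above background on no array. LeGO-1/6 replicate 1 stood apart, with 35374 probes well above background against 24012 to 30748 on the other arrays, and the count of called genes in each comparison that uses it is also given without it.

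The matrix genes varied over the groups to different degrees. Over the 9 groups, the mean log2 signal spanned more than 1 unit in 36 of the 46 genes and more than 4 units in 9, with a median span of 2.52. Spans were not taken over all genes, so these counts do not set matrix genes apart from others. Ogn had the widest measured span (11.7), followed by Dcn (9.57), Col8a1 (6.48) and Col5a1 (6.17). In each of these genes the group with the lowest mean was well above background on no array, so the spans have no exact size. Narrow spans were found for Lama5 (0.38), a laminin alpha chain, and Col4a2 (0.47), a chain of the collagen IV network, both well above background on all arrays.

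**Figure D1:**
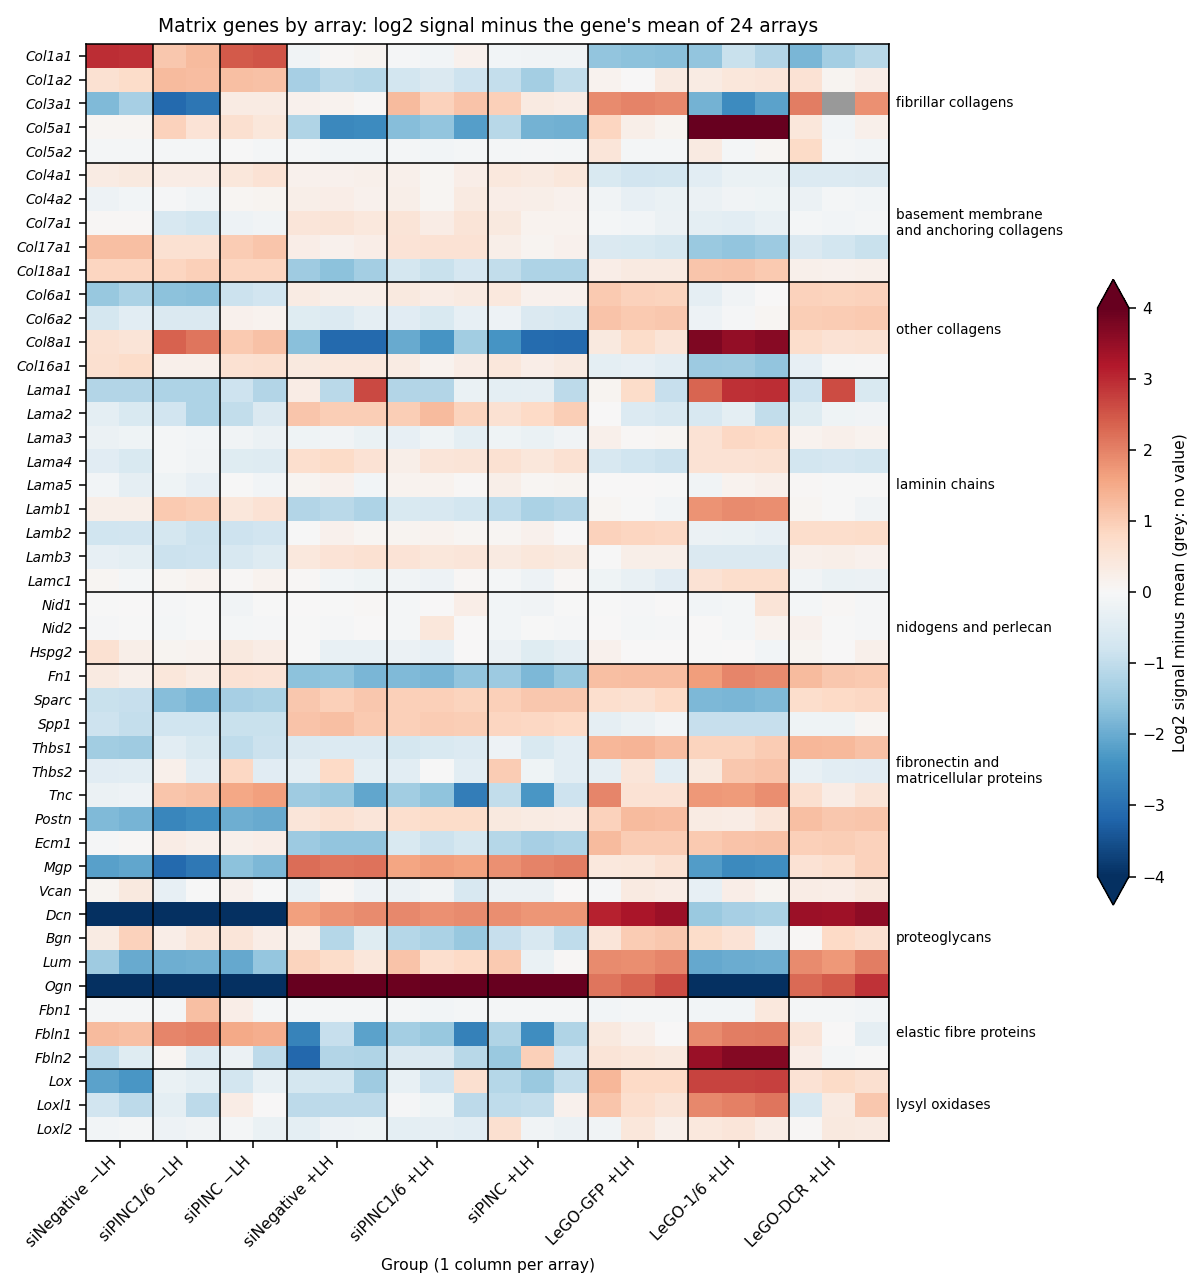
Heat map with the 46 measured matrix genes as rows and the 24 arrays as columns. Colour gives the log2 signal minus the gene's mean over all arrays, and grey marks the 1 missing Col3a1 value (LeGO-DCR replicate 2). Ogn and Dcn are low on the 6 −LH arrays, and on the 3 LeGO-1/6 arrays they lie below the other +LH arrays.

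Sequences before the start of transcription are shown for 6 genes called in opposite directions by hormones and by LeGO-1/6: Ogn, Postn, Spp1, Sparc and Col3a1, higher with hormones, and Col8a1, lower with hormones. They let the regions upstream of genes that moved together be compared. Each is the 250 bases just upstream of a RefSeq start (build GRCm38.p6), and the RefSeq table held such a sequence for 32 of the 48 genes. In 14 of the 32, none of them shown, the window reaches past the outermost start of the gene. Capitals mark TTCNNNGAA (the letters bound by STAT5), AGAACA (a half-site of the glucocorticoid receptor) and TGANTCA (AP-1), searched on both strands, and TATAAA, searched on the gene's strand. The sequences come from chr13:49607765-49608014 on the plus strand (Ogn), chr3:54359017-54359266 on the plus strand (Postn), chr5:104434861-104435110 on the plus strand (Spp1), chr11:55420081-55420330 on the minus strand (Sparc), chr1:45311288-45311537 on the plus strand (Col3a1) and chr16:57754738-57754987 on the minus strand (Col8a1).
Ogn: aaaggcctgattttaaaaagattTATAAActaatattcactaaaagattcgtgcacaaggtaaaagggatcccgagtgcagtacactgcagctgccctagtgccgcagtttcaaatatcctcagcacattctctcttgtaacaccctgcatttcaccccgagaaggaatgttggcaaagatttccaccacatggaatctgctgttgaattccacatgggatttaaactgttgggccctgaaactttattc
Postn: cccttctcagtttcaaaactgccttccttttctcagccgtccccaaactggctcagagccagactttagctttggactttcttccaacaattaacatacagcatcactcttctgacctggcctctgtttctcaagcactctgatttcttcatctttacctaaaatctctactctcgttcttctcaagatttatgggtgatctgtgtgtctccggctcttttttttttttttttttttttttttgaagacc
Spp1: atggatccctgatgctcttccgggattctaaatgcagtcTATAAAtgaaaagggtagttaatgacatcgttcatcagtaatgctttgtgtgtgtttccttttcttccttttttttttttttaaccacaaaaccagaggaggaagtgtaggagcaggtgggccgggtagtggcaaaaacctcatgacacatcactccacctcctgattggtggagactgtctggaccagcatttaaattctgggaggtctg
Sparc: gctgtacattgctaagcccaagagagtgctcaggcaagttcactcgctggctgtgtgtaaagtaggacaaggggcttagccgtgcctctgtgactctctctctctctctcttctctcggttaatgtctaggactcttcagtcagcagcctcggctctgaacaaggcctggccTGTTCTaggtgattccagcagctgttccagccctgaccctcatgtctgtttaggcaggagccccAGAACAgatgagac
Col3a1: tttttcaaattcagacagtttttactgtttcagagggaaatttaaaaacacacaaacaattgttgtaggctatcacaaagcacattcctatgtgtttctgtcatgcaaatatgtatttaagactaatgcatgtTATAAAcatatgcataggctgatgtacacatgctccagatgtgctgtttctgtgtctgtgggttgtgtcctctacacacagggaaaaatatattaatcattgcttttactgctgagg
Col8a1: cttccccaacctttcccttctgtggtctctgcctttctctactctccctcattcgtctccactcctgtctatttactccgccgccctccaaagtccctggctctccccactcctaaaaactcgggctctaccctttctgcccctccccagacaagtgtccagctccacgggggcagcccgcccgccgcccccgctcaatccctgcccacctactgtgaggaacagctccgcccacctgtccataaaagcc

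TTCNNNGAA lay in the window of 1 of the 32 genes (Lamb2, 3.12%), against 7.14% of all 27025 upstream sequences of that length. AGAACA lay in the window of 4 genes (Bgn, Fbln1, Lama2 and Sparc, 12.5%), against 16.1%, and Sparc held it once on each strand. TGANTCA lay in the window of 2 genes (Col6a1 and Ecm1, 6.25%), against 6.85%. TATAAA lay in the window of 6 genes (Col17a1, Col3a1, Ecm1, Ogn, Spp1 and Tnc, 18.8%), against 8.13%. None of these motifs was found in the windows of Postn and Col8a1.

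How lactogenic hormones go with the matrix genes of control cells was taken from siNegative +LH against siNegative −LH (n = 3 and 2). The small leucine-rich proteoglycans Ogn, Dcn and Lum and 5 matricellular proteins were higher with hormones, and fibronectin, type I collagen, collagen XVIII and the laminin beta 1 chain were lower. Of the 46 genes, 17 were higher and 14 lower at an adjusted p under 0.05 (limma), or 67.4% in either direction, where 40.8% of all 20145 genes were called (21.2% higher, 19.5% lower). The median log2 difference was 0.02 over the 46 genes and 0.02 over all genes, so the matrix genes as a whole did not lean one way.

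Among the proteoglycans, 3 of 5 were higher and 1 lower. Their median measured difference, 2.40, was that of Lum. Lum was well above background on no siNegative −LH array, so this median has no exact size. Ogn, for osteoglycin, had a log2 signal of 1.89 and 1.89 on the siNegative −LH arrays, not well above background, and of 13.51, 13.62 and 13.58 on the siNegative +LH arrays. It was at least 657-fold higher with hormones (measured log2 difference 11.68, SE 0.104, adjusted p = 2.78e-12), the widest difference of any matrix gene in this comparison. Dcn, for decorin, which binds collagen fibrils and TGF-beta, had 5.06 and 4.70 without and 11.74, 11.88 and 11.97 with hormones. The groups lay far apart, with a difference of 6.98 (SE 0.116, 126-fold, adjusted p = 1.14e-10). Lum, for lumican, was at least 1.32-fold higher, but well above background on only 1 of the 3 +LH arrays. Bgn, for biglycan, went the other way (−1.08, adjusted p = 0.0309), and Vcan, for versican, differed by −0.41 (adjusted p = 0.116), which did not pass the test.

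Of fibronectin and 8 matricellular proteins, 5 were higher and 3 lower. Mgp, for matrix Gla protein, an inhibitor of calcification, had 11.68 and 11.78 without and 16.08, 16.00 and 16.01 with hormones. The arrays did not overlap, and the difference was 4.30 (SE 0.0902, 19.7-fold, adjusted p = 3.21e-10). Postn, for periostin, had 11.73 and 11.63 without and 13.97, 14.09 and 13.97 with hormones (difference 2.33, adjusted p = 1.66e-09). Spp1, for osteopontin, a secreted phosphoprotein found in milk, had 14.47 and 14.36 and then 16.45, 16.52 and 16.34 (difference 2.03, adjusted p = 2.8e-09). All +LH arrays of both genes lay above both −LH arrays. Sparc, for the collagen-binding protein osteonectin, had 16.73 and 16.70 without and 18.68, 18.58 and 18.68 with hormones (difference 1.93, SE 0.0622, adjusted p = 3.72e-09). Its probe held rank 3 or 4 of all probes on the siNegative +LH arrays, where quantile normalization fixes the value of each rank, and a dimmer second probe of the gene differed by 3.06. Thbs1, for thrombospondin 1, was higher by 0.87.

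Fn1, for fibronectin, fell with hormones. Its log2 signal was 15.55 and 15.40 on the −LH arrays and 13.56, 13.60 and 13.37 on the +LH arrays, without overlap (difference −1.97, SE 0.119, adjusted p = 3.8e-07). Ecm1, for a secreted glycoprotein of the matrix, was also lower (−1.55). Tnc, for tenascin C, was at least 2-fold lower, as its probe was well above background only without hormones (adjusted p = 0.0435). Thbs2 was well above background in neither group.

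The fibrillar collagens did not move together. Col1a1, a chain of type I collagen, had 8.76 and 8.71 without and 5.64, 5.82 and 5.91 with hormones, and was lower on every +LH array (difference −2.94, SE 0.0992, adjusted p = 5.01e-09). Col1a2, which forms the same triple helix, was lower as well (−1.86, adjusted p = 8.85e-07). Col3a1, the chain of type III collagen, had 8.13 and 8.57 without and 10.06, 10.03 and 9.92 with hormones, and was higher on every +LH array (difference 1.66, SE 0.198, adjusted p = 7.71e-05). Col5a1, of type V collagen, which starts fibril assembly, was at least 3.16-fold lower, and Col5a2 was detected in neither group. Among the other collagens, Col6a1, of the beaded filaments of collagen VI, was higher (1.65, adjusted p = 2.42e-07), whereas Col6a2, its partner chain, differed by 0.08 (adjusted p = 0.803). Col8a1, of type VIII collagen, was at least 2.24-fold lower.

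In the basement membrane the collagen IV chains changed little. Col4a1 differed by −0.18 (adjusted p = 0.086) and Col4a2 by 0.37 (adjusted p = 0.00548). Col18a1, for collagen XVIII, the source of endostatin, had 10.90 and 10.90 without and 8.61, 8.39 and 8.66 with hormones (difference −2.35, SE 0.102, adjusted p = 3.24e-08), with every +LH array below both −LH arrays. Col17a1, the transmembrane collagen of hemidesmosomes, was lower (−0.96) and Col7a1, of anchoring fibrils, was higher (0.43).

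Of the 9 laminin chains, 4 were higher and 1 was lower. The beta chains divided: Lamb1 had 11.34 and 11.33 without and 9.92, 10.01 and 9.85 with hormones, and was lower on every +LH array (difference −1.41, SE 0.0837, adjusted p = 3.35e-07). Lamb2 was higher by 0.86 and Lamb3, the beta chain of laminin-332, by 0.88. Of the alpha chains, Lama2 (1.51) and Lama4 (1.20) were higher, and Lama3 differed by 0.01 (95% interval −0.153 to 0.168). Lamc1, the gamma chain of most laminins, differed by −0.09 (95% interval −0.314 to 0.133). Hspg2, for perlecan, was lower (−0.62), but its second probe, which differed by −0.27, was not called. Fbln1, for fibulin 1, was at least 2.85-fold lower, and Lox, for lysyl oxidase, the enzyme that starts collagen and elastin cross-links, was at least 1.45-fold higher, with 1 of 3 +LH arrays well above background.

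siNegative +LH replicate 1 shared a slide with the −LH arrays, and the other +LH arrays lay on another slide. Within the shared slide, where the +LH group is 1 array, the differences were 11.62 for Ogn, 6.86 for Dcn, 4.34 for Mgp and −3.10 for Col1a1. The measured differences of Col5a1 (−1.28) and Col8a1 (−2.24) were smaller there than over all arrays (−2.18 and −3.19). Cell type markers moved with hormones too: of 9 epithelial markers, Epcam, Krt8, Krt18, Elf5 and Ehf were higher and Krt14 and Krt5 lower, and of 9 fibroblast markers Pdgfra and Pdgfrb were higher and none lower. Of the myoepithelial markers, Acta2 was higher and Oxtr lower, and of the adipocyte markers Fabp4 was higher. The summed signal of the epithelial list was 188000 to 194000 on −LH arrays and 112000 to 126000 on +LH arrays, that of the fibroblast list 240 to 272 and 438 to 496, that of the myoepithelial list 1020 to 1340 and 418 to 459, and that of the adipocyte list 85 to 111 and 130 to 492. On −LH arrays the epithelial sum came mostly from Krt5 and Krt14. Their means went from 16.53 to 13.80 and from 16.00 to 14.89 with hormones, so the sum hides the epithelial markers that were higher. The adipocyte value of 492 came with Plin1 at 8.45 on 1 siNegative +LH array. The part of the cell type markers in the matrix differences was not tested. In RNA of whole cultures, a changed number of cells of a type and a changed amount of RNA per cell cannot be told apart.

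**Figure D2:**
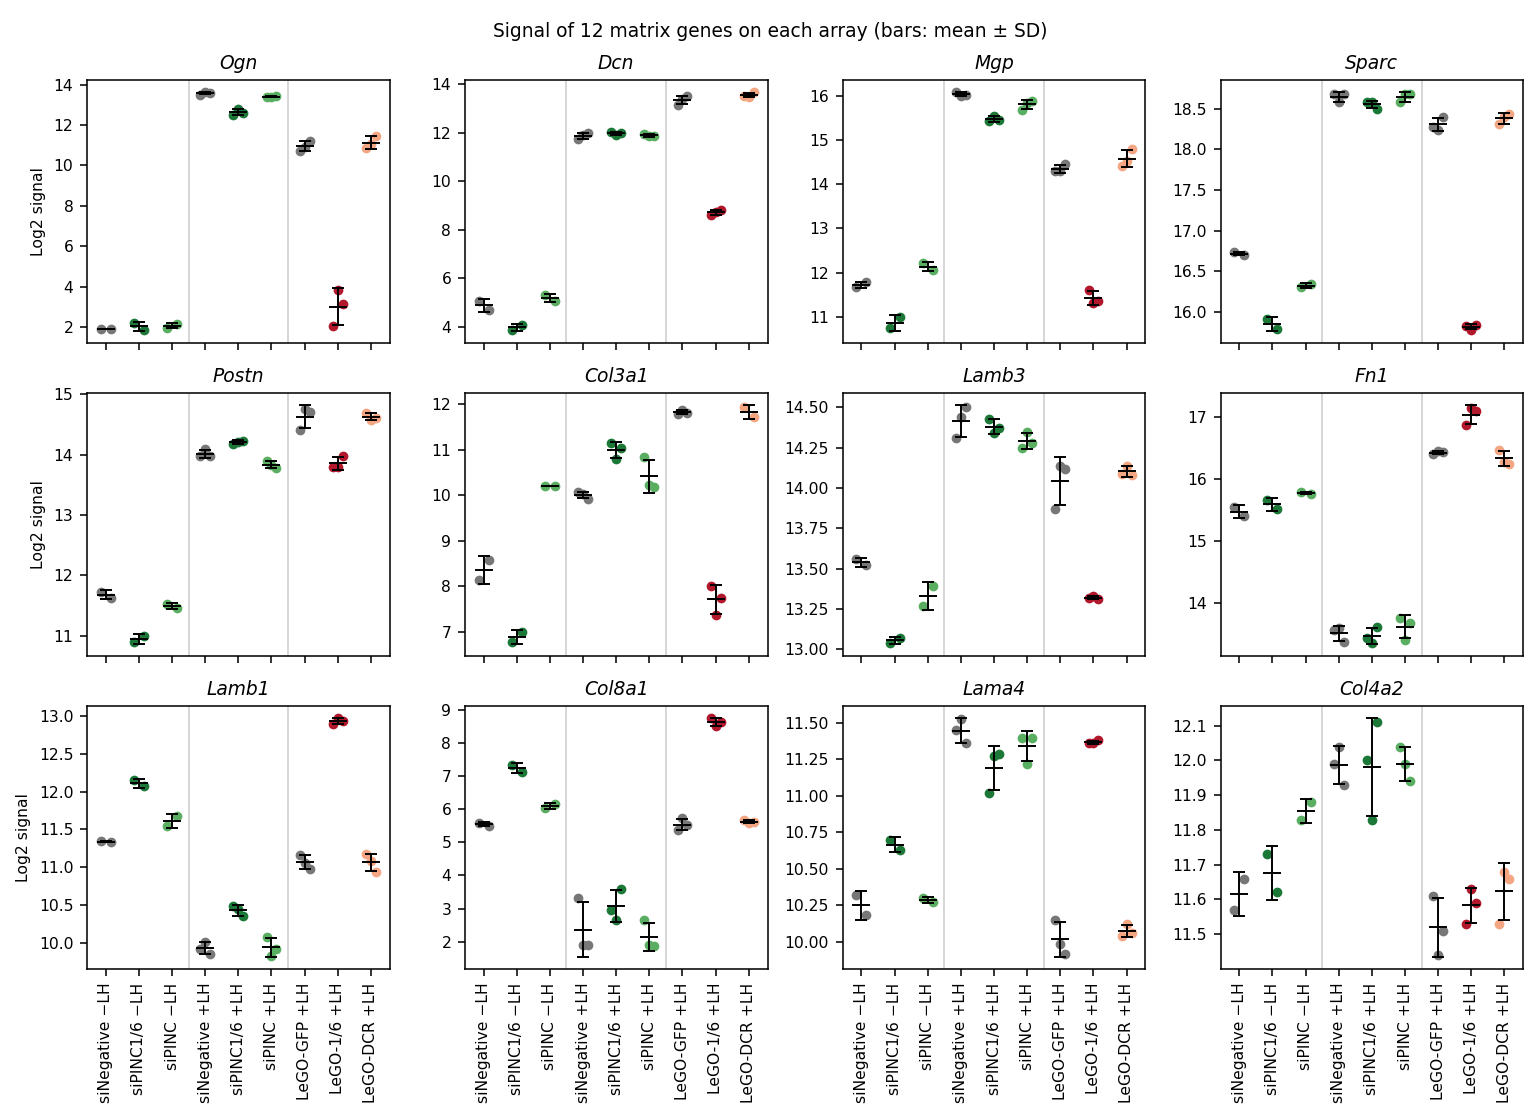
Log2 signal (vertical axes, 1 panel and scale for each gene) of 12 matrix genes in the 9 groups, with a dot for each array and the mean ± SD as bars. Ogn lies at 13.51, 13.62 and 13.58 in siNegative +LH and at 1.89 and 1.89 in siNegative −LH, and Lamb1 lies highest in LeGO-1/6, at 12.90, 12.97 and 12.94.

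Raised mPINC1.0 and mPINC1.6 were examined by setting LeGO-1/6 against LeGO-GFP, both with hormones (n = 3 each). The proteoglycans Ogn, Dcn and Lum, type III collagen, Mgp and Sparc were lower in LeGO-1/6, and Col5a1, Col8a1, both detected fibulins and several laminin chains were higher. Of the 46 genes, 13 were higher and 16 lower, or 63% in either direction, where 45.7% of all genes were called (22.6% higher, 23.1% lower). Without LeGO-1/6 replicate 1, which stood apart, 30 genes were called, where 44.6% of all genes were called. Lama5 was then called higher, and the counts of the other roles, the cell type markers and the milk proteins were as given. Without LeGO-GFP replicate 1, which lay on another slide than the other lentivirus arrays, 29 were called (46% of all genes), 28 of them the same.

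No proteoglycan was higher and 3 of 5 were lower. Ogn had 10.71, 10.91 and 11.20 in LeGO-GFP and 2.04, 3.83 and 3.16 in LeGO-1/6, where 1 of 3 arrays was well above background. The groups lay far apart, and the difference was −7.93 (SE 0.431, adjusted p = 8.33e-06), or −7.44 without LeGO-1/6 replicate 1. Dcn had 13.15, 13.36 and 13.50 in LeGO-GFP and 8.59, 8.74 and 8.81 in LeGO-1/6 (difference −4.62, 24.6-fold, adjusted p = 2.12e-07). Lum was at least 5.36-fold lower, being well above background on no LeGO-1/6 array. For Bgn the difference was −0.51 (95% interval −1.26 to 0.227), which did not pass the test.

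Of the matricellular group, 5 were lower and 2 higher. Sparc had 18.28, 18.24 and 18.40 in LeGO-GFP and 15.82, 15.78 and 15.84 in LeGO-1/6 (difference −2.50, 5.64-fold, adjusted p = 2.62e-07), and its second probe differed by −2.72. Mgp had 14.29, 14.30 and 14.46 and then 11.61, 11.31 and 11.36 (difference −2.93, 7.6-fold, adjusted p = 2.43e-06). In both genes every LeGO-1/6 array lay below every LeGO-GFP array. Postn (−0.77), Spp1 (−0.68) and Thbs1 (−0.36) were lower by less. Fn1 was higher: it had 16.40, 16.45 and 16.43 in LeGO-GFP and 16.87, 17.15 and 17.10 in LeGO-1/6, without overlap (difference 0.61, adjusted p = 0.00143). Thbs2 was called higher, but its groups overlapped and 1 of 6 arrays was well above background, so no size is given. For Tnc the probe used here differed by 0.73 (adjusted p = 0.205), and a second probe by 1.16, which passed the test.

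Type III collagen fell in LeGO-1/6 while type V collagen rose. Col3a1 had 11.79, 11.88 and 11.80 in LeGO-GFP and 8.01, 7.36 and 7.75 in LeGO-1/6 (difference −4.12, SE 0.166, 17.3-fold, adjusted p = 7.1e-06). Col5a1 had 6.82, 6.19 and 6.06 and then 9.94, 10.05 and 10.10 (difference 3.68, SE 0.22, 12.8-fold, adjusted p = 1.33e-05). Neither gene's groups overlapped. The chains of type I collagen did not pass the test, with differences of 0.42 (95% interval −0.102 to 0.943) for Col1a1 and 0.24 (95% interval −0.0802 to 0.568) for Col1a2. Col8a1 had 5.37, 5.72 and 5.52 in LeGO-GFP and 8.73, 8.51 and 8.63 in LeGO-1/6 (difference 3.09, adjusted p = 8.25e-07). Col6a1 (−1.12), Col6a2 (−1.15) and Col16a1 (−1.10) were lower.

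The laminin chains divided in LeGO-1/6. Lamb1 had 11.16, 11.06 and 10.98 in LeGO-GFP and 12.90, 12.97 and 12.94 in LeGO-1/6, higher on every LeGO-1/6 array (difference 1.87, SE 0.0747, adjusted p = 2.06e-06). Lama4 (1.35), Lamc1 (0.96) and Lama3 (0.63) were higher too, and Lamb2 (−1.13) and Lamb3 (−0.73) were lower. Among basement membrane collagens, Col4a1 was higher by 0.40, Col4a2 differed by 0.06 (95% interval −0.0967 to 0.22), and Col17a1 (−0.87) and Col7a1 (−0.23) were lower. Col18a1 was higher by the probe used here (0.78), while a second probe differed by −0.02. Hspg2 differed by −0.11 (95% interval −0.265 to 0.0512). Fbln2, for fibulin 2, had 6.22, 6.16 and 6.08 and then 9.14, 9.38 and 9.37 (difference 3.14, adjusted p = 1.03e-06). Fbln1 (1.81) and Lox (1.73) were higher as well, and for Lox a second probe gave 1.70.

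**Figure D3:**
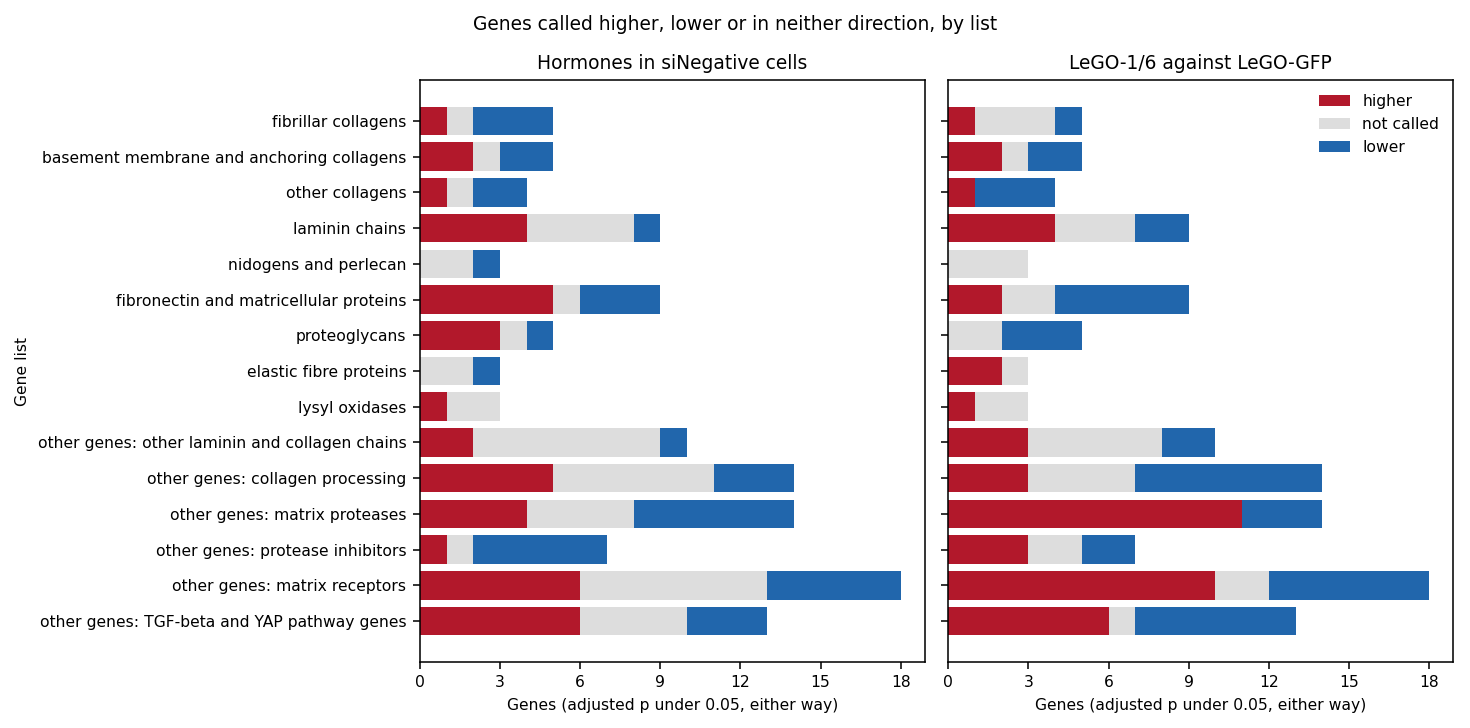
Stacked bars count the genes called higher, not called and called lower (adjusted p under 0.05), for hormones and for LeGO-1/6 against LeGO-GFP. The upper rows are the 9 roles of the matrix genes. The rows below them are lists of other genes: other laminin and collagen chains, collagen processing, proteases, protease inhibitors, receptors, and TGF-beta and YAP pathway genes. Of 5 proteoglycans, 3 were higher with hormones and 3 lower in LeGO-1/6.

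Markers of cell type moved in this comparison as well. Of the 9 epithelial markers, 7 were lower (Epcam, Cdh1, Krt8, Krt14, Krt5, Elf5 and Ehf) and none higher, and their summed signal was 50600 to 54000 in LeGO-1/6 against 116000 to 121000 in LeGO-GFP. Of the 9 fibroblast markers, Pdgfra, Twist1, Twist2 and Zeb1 were higher and Pdgfrb lower, with a summed signal of 783 to 851 against 281 to 355, while the fibroblast markers Dpt and Lrrc15 were well above background on no array. Of the 3 adipocyte markers, Fabp4 rose from a mean of 9.65 to 13.31, and Adipoq was called higher with no array well above background; the summed signal of the list was 9720 to 10900 against 794 to 843. Of the 5 myoepithelial markers, Acta2 and Cnn1 were higher and Oxtr and Mylk lower, with a summed signal of 869 to 1080 against 943 to 1180. The part of these markers in the matrix differences was not tested. The 5 milk protein genes were all lower, Csn2 (beta-casein) at least 6.75-fold and Ltf (lactoferrin) by −4.31 on the log2 scale.

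The hormone and LeGO-1/6 comparisons share no array, so their values can be set side by side. In the members called in both, 23 genes (74.2% of those called with hormones and 79.3% of those called in LeGO-1/6), the direction was opposite in 19, and without LeGO-1/6 replicate 1 these counts were again 23 and 19. The 4 with the same direction were Lama4 and Lox, higher in both, and Col16a1 and Col17a1, lower in both. Over all genes, 6048 were called in both (73.6% and 65.7%), and 81% of these had opposite directions, so the share of opposites in the matrix genes (82.6%) was near that of the background. Pearson's correlation of the log2 differences, as a description across genes that share arrays, was −0.79 over the 46 matrix genes and −0.44 over all genes.

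**Figure D4:**
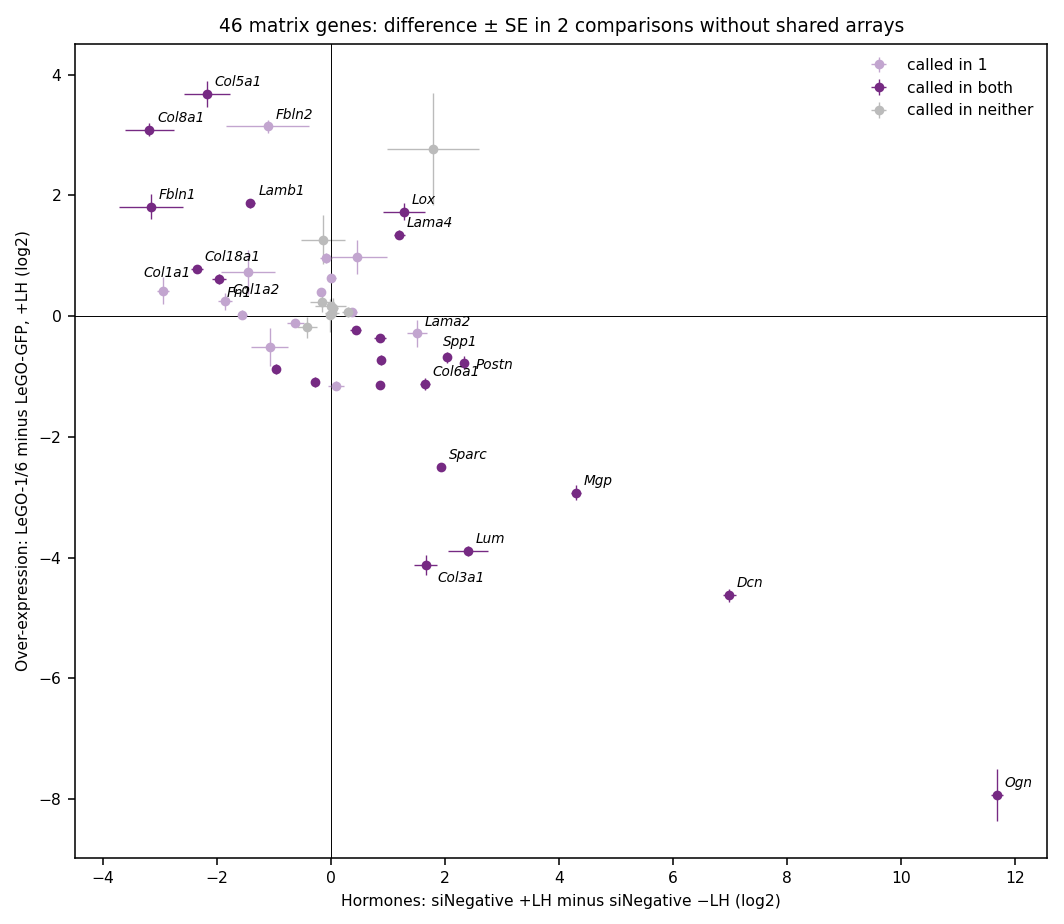
Each point is a matrix gene, with the log2 difference with hormones (siNegative +LH minus −LH) on the horizontal axis and that of LeGO-1/6 minus LeGO-GFP on the vertical axis, and bars of ± SE. Values are as measured, also where a group was not well above background. Ogn (11.68 and −7.93) and Dcn (6.98 and −4.62) lie at the lower right, and Col8a1 (−3.19 and 3.09) and Col5a1 (−2.18 and 3.68) at the upper left.

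LeGO-DCR gave no called matrix gene against LeGO-GFP (0 of 46 by limma, 0 by the methods' t-test), where 0.0397% of all genes were called. At an unadjusted p under 0.05 (limma) there were 4 members, against 843 of all 20145 genes. The 4 were Fbln2 (−0.40), Lamb2 (−0.15), Col16a1 (0.24) and Col18a1 (−0.12). The 95% intervals of the difference ran from −0.0442 to 0.464 for Dcn, −0.0713 to 0.219 for Sparc and −0.178 to 0.174 for Lamb1. LeGO-1/6 against LeGO-DCR, the direct comparison of both mPINC lines, gave 15 higher and 16 lower of 46 (45.5% of all genes called, 23% higher and 22.5% lower). Without LeGO-1/6 replicate 1 it gave 31 genes (44.5% of all genes). The differences of LeGO-1/6 minus LeGO-DCR were −8.10 for Ogn (1 of 3 LeGO-1/6 arrays well above background, and −7.62 without replicate 1), −4.83 for Dcn, −4.12 for Col3a1 (whose value is missing on LeGO-DCR replicate 2) and 1.87 for Lamb1.

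Knockdown of mPINC1.0 and mPINC1.6 without hormones (siPINC1/6 −LH against siNegative −LH, n = 2 each) was set against control cells next. The collagen chains Col1a1, Col3a1, Col7a1, Col16a1 and Col17a1, with Sparc and Postn, were lower, and Col1a2, Col8a1, Lox, Tnc, Thbs1, Lamb1 and Fbln1 were higher. Of the 46 genes, 7 were higher and 7 lower, where 5.24% of all genes were called (2.64% higher, 2.61% lower), and the median difference was 0.00 for both. With 2 arrays a group the calls did not hold in other fits. Adding the replicate number left 0 of the 14, but then 0 of all 20145 genes were called too. Scaling to the 75th percentile left 2, with 0.576% of all genes called. Leaving out any 1 −LH array leaves a group of 1, which shows no spread of its own. The spread was estimated together with the siPINC −LH arrays. The calls did not hold without either of those arrays, although both compared groups then kept n = 2. No named difference reversed in the 17 alternatives, and that of Col1a1 ran from −1.90 to −1.39.

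Col1a1 had 8.76 and 8.71 in siNegative and 6.85 and 7.04 in siPINC1/6, lower on both arrays (difference −1.79, SE 0.0848, adjusted p = 0.0223). Col1a2 was higher (0.59, adjusted p = 0.0403), so the partner chains of type I collagen moved in opposite directions here. Col3a1 had 8.13 and 8.57 and then 6.78 and 6.99 (difference −1.46, adjusted p = 0.0463). Sparc had 16.73 and 16.70 in siNegative and 15.91 and 15.79 in siPINC1/6 (difference −0.87, adjusted p = 0.0302). Both genes were lower on both siPINC1/6 arrays than on either control. Col7a1 (−0.74), Postn (−0.74), Col17a1 (−0.59) and Col16a1 (−0.48) were also lower.

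Among the genes that were higher, Tnc had 5.45 and 5.49 in siNegative and 6.78 and 6.86 in siPINC1/6 (difference 1.35, adjusted p = 0.0223). Col8a1 had 5.59 and 5.50 and then 7.34 and 7.13 (difference 1.69, adjusted p = 0.0287), and neither gene's arrays overlapped. Lox was at least 2.27-fold higher (adjusted p = 0.0354), and Thbs1 (0.91), Lamb1 (0.77) and Fbln1 (0.75) were higher. Mgp (−0.87, adjusted p = 0.0511) and Lamb3 (−0.49, adjusted p = 0.0526) did not pass the test. Of the epithelial markers, Elf5 was lower, of the fibroblast markers, Pdgfra was lower and Thy1 was called higher with no array of either group well above background, and of the myoepithelial markers, Acta2 was higher and Mylk lower. Their part was not tested.

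This comparison shares no array with the lentiviral lines. Of its 14 called genes, 11 (78.6%, or 37.9% of those called in LeGO-1/6) were also called in LeGO-1/6 against LeGO-GFP, 10 in the same direction and Thbs1 in the opposite one, with the same counts when LeGO-1/6 replicate 1 was left out. The 10 were Col16a1, Col17a1, Col3a1, Col7a1, Postn and Sparc, lower in both, and Col8a1, Fbln1, Lamb1 and Lox, higher in both. Over all genes, 884 were called in both (83.7% and 9.61%), 766 of them in the same direction. The knockdown arrays here were without hormones and the LeGO arrays with them.

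With hormones, siPINC1/6 against siNegative (n = 3 each) gave 5 higher and 2 lower of 46, where 6.4% of all genes were called (3.91% higher, 2.49% lower). Ogn had 13.51, 13.62 and 13.58 in siNegative and 12.51, 12.79 and 12.58 in siPINC1/6, lower on every array (difference −0.94, SE 0.0777, adjusted p = 0.00141). Mgp had 16.08, 16.00 and 16.01 and then 15.43, 15.54 and 15.45, also without overlap (difference −0.55, adjusted p = 0.00705). Ecm1 had 12.68, 12.54 and 12.56 in siNegative and 13.51, 13.28 and 13.44 in siPINC1/6 (difference 0.82, adjusted p = 0.00294), and a second probe gave 1.14. Col3a1 (0.99, adjusted p = 0.0337), Col18a1 (0.72), Lamb1 (0.50) and Col17a1 (0.33) were higher. siNegative replicate 1 lay on another slide than the other siRNA arrays with hormones. With a slide term, and with 1 fit of 24 arrays, Ogn was not called. The Col3a1 call was lost in 9 of 20 alternatives, among them the fits without any 1 of the siNegative arrays. Without siPINC1/6 replicate 1 the count was 3 (3.28% of all genes), and without replicate 2 it was 4 (3.61%). Of the epithelial markers, Krt14 and Krt5 were higher and Krt18, Elf5 and Ehf lower in these arrays, of the fibroblast markers Pdgfra was lower, and of the milk proteins Csn2 was lower (−1.20) and Ltf higher (1.10); their part was not tested. Against LeGO-1/6, which shares no array, 6 of the 7 genes (85.7%, or 20.7% of those called in LeGO-1/6) were called in both, Col18a1, Lamb1, Mgp and Ogn in the same direction and Col17a1 and Col3a1 in opposite ones, with the same counts without LeGO-1/6 replicate 1. Over all genes 1094 were called in both (84.9% and 11.9%), 882 in the same direction and 212 in opposite ones, so the matrix genes' share of 85.7% was near that of the background.

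Whether the siPINC1/6 difference itself depended on hormones was tested as an interaction over the 15 siRNA arrays. Of the 46 genes, 10 had a higher and 3 a lower difference with hormones than without, where 6.1% of all genes were called (4.1% higher, 2% lower). The collagen chains among them, all with a higher difference with hormones, were Col3a1 (2.45, SE 0.281, adjusted p = 0.00113), Col1a1 (1.79, SE 0.14, adjusted p = 0.000129), Col17a1 (0.92, SE 0.0794, adjusted p = 0.000241), Col7a1 (0.70) and Col18a1 (0.66). Col3a1 was lower in siPINC1/6 without hormones (−1.46) and higher with them (0.99). Col17a1 did the same (−0.59 and 0.33). For Col1a1 the difference was −1.79 without hormones and 0.01 (95% interval −0.218 to 0.229) with them. Without siNegative −LH replicate 2, or without siPINC1/6 −LH replicate 2, 8 genes were called. Of the markers, Krt5, Pdgfra and Mylk had a higher and Krt18, Ehf and Csn2 a lower difference with hormones than without; their part was not tested.

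The other genes of this interaction were Postn (0.93), Sparc (0.77), Ecm1 (0.58), Lamb3 (0.45) and Dcn (1.01) in the same direction, and Ogn (−1.09), Thbs1 (−0.99) and Lama4 (−0.67) in the opposite one. Ogn was well above background on no −LH array of either group, so the size of its interaction is not defined. Sparc was lower in siPINC1/6 without hormones, and its second probe, with an interaction of 0.45, was not called. The Sparc probe used here held rank 3 or 4 in siNegative +LH and 4 or 5 in siPINC1/6 +LH, where quantile normalization fixes the value. Its interaction was not called with 75th percentile scaling or with the mean of the gene's probes. Dcn was well above background on neither siPINC1/6 −LH array, so the size of its interaction is not defined either, and its interaction was not called after normexp background correction. Written as the hormone difference in each siRNA group, Col3a1 was higher by 1.66 in siNegative, 4.11 in siPINC1/6 and 0.21 in siPINC cells. In siPINC1/6 and siPINC cells the −LH and +LH arrays lay on different slides. Hormones and slide cannot be told apart in those values.

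**Figure D5:**
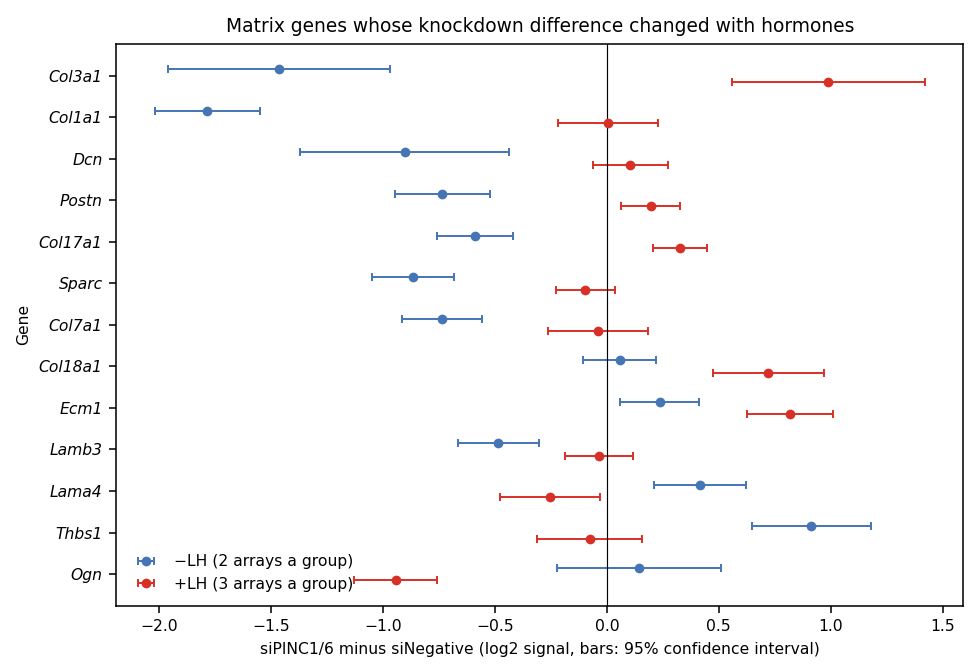
Log2 difference of siPINC1/6 minus siNegative (horizontal axis, points with 95% intervals) without and with hormones, for the 13 matrix genes with a called interaction. Col3a1 lies at −1.46 without and 0.99 with hormones, and Col1a1 at −1.79 and 0.01.

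The siPINC pool, against all splice forms, gave no called matrix gene in either condition: 0 of 46 without hormones (0% of all genes called) and 0 with hormones (1.35% of all genes), and the methods' t-test called 0 in each. At an unadjusted p under 0.05 (limma) there were 20 members without hormones, against 2632 of all 20145 genes. With hormones there were 7 members, against 3008 of all genes. Larger differences were seen in Col3a1 (1.85, adjusted p = 0.154) and Tnc (1.81, adjusted p = 0.09) without hormones, which did not pass the test. Col3a1 stood at 8.13 and 8.57 in siNegative −LH, 6.78 and 6.99 in siPINC1/6 −LH and 10.20 and 10.20 in siPINC −LH. From high to low the order was siPINC, siNegative and siPINC1/6, with no overlap, and siPINC1/6 minus siPINC was −3.32 (95% interval −3.81 to −2.82, adjusted p = 0.0609). In that direct comparison 0 of 46 genes were called (0.0397% of all genes, 0 by the methods' t-test), while the count was 14 (8.09% of all genes) when all 24 arrays shared 1 estimate of the spread. At an unadjusted p under 0.05 (limma) there were 20 members and 4094 of all 20145 genes. With hormones, siPINC1/6 against siPINC gave 3 higher (Ecm1 0.51, Col17a1 0.38, Postn 0.37) and 1 lower (Ogn −0.77). Of all genes 1.78% were called (0.933% higher, 0.844% lower). Without siPINC replicate 3, 0 matrix genes were called (0.486% of all genes). Of the markers, Krt18, Elf5 and Csn2 were lower there, and their part was not tested. The siPINC interaction with hormones was called in 0 of 46 genes (0.874% of all genes), with Col3a1 at −1.45 (adjusted p = 0.0667). Here 14 members and 2148 of all 20145 genes had an unadjusted p under 0.05 (limma).

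The matrix is also set by the enzymes that build and cut it and by the receptors that bind it. Of 76 other genes of these kinds, 24 were higher and 23 lower with hormones, and 36 were higher and 26 lower in LeGO-1/6 (33 and 26 without LeGO-1/6 replicate 1), where 40.8% and 45.7% of all genes were called. The median difference was 0.00 with hormones (0.02 over all genes) and 0.32 in LeGO-1/6 (−0.01 over all genes). Among 14 matrix proteases, 11 were higher and 3 lower in LeGO-1/6 (9 and 3 without LeGO-1/6 replicate 1, Mmp11 and Adamts2 not being called), with a median of 1.75, including Mmp3 (6.69), a stromelysin, Mmp13, a collagenase (at least 21.2-fold), and Mmp9, a gelatinase (at least 4.06-fold), while Mmp15 (−3.44) was lower. With hormones 4 of the 14 were higher and 6 lower.

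Of 7 protease inhibitors, 1 was higher and 5 lower with hormones. Timp1, which blocks metalloproteases, differed by −3.02 (adjusted p = 2.73e-09) with hormones and by 2.17 (adjusted p = 1.72e-07) in LeGO-1/6. Of 18 receptors, 10 were higher and 6 lower in LeGO-1/6, with Cd44 (2.66), a hyaluronan receptor, and Itga5 (1.94), a chain of the fibronectin receptor, higher, and Dag1 (−1.63), for dystroglycan, and Itgb4 (−0.91), the hemidesmosome integrin, lower. Of 14 genes of collagen processing, 3 were higher (2 without LeGO-1/6 replicate 1) and 7 lower in LeGO-1/6, with Pcolce, which aids procollagen cleavage, at −2.12. Ccn2, for connective tissue growth factor, was 4.90 with hormones and −2.13 in LeGO-1/6.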

How the data were processed

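RNA of 24 HC11 cultures was labelled and hybridized to Agilent mouse arrays of 1 colour. The deposited scanner files (Agilent Feature Extraction 11.0.1.1) hold processed intensity per spot, background-subtracted by that software; the authors' deposited value table holds log2 values after quantile normalization and was used as an alternative only. The log2 intensity of all 59305 non-control spots was quantile-normalized over the 24 arrays (R 4.3.3, limma 3.58.1). Spots marked as outliers (146 to 644 an array) were left out after that step. The remaining spots of a probe were then averaged, which gave 55681 probes. RefSeq accessions (assembly GRCm38.p6) gave 26582 probes a symbol, and 1 probe stands for each gene, the one well above background on most arrays. Groups were compared with lmFit and eBayes, two-sided, and Benjamini-Hochberg adjustment over all probes. Precision is limited by how few arrays each group holds. "At least" folds set the brighter group's mean against the lowest signal well above background in the dimmer group, as log2 means. Upstream sequences were searched with Python 3.11.15. In each comparison the 6 largest rises and 6 largest falls among called genes are named, and fixed genes of interest where their role needs them. The exception is LeGO-1/6 against LeGO-DCR, where only Ogn, Dcn, Col3a1 and Lamb1 are named. Other genes are named to complete a count. The genes and lists were chosen with earlier results of these data known. Alternatives covered scaling, background, probe filter, prior, shared fits, slide, replicate number, the authors' table, the methods' t-test and each array left out.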

Additional observations from a re-analysis of the deposited data

Results flagged for a closer look

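In 13 matrix genes the difference between siPINC1/6 and siNegative differed between cells with and without hormones by the test of that interaction (limma, adjusted p under 0.05, 15 siRNA arrays). The interaction, as a log2 difference with hormones minus that without, was 2.45 for Col3a1, 1.79 for Col1a1, 1.01 for Dcn, 0.93 for Postn, 0.92 for Col17a1, 0.77 for Sparc, 0.70 for Col7a1, 0.66 for Col18a1, 0.58 for Ecm1 and 0.45 for Lamb3. It was −1.09 for Ogn, −0.99 for Thbs1 and −0.67 for Lama4. Ogn was well above background on no −LH array of these groups and Dcn on no siPINC1/6 −LH array, so the sizes of their interactions are not defined. The Sparc probe held ranks of 3 to 5 on the +LH arrays of these groups, where quantile normalization fixes the value, and its second probe was not called. The arrays labelled siPINC1/6 +LH showed no lower mPINC signal.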

How the results depend on the processing

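Of 68 named gene results, 1450 pairs of result and alternative gave 1240 that kept direction and call, 210 that lost the call and 0 that reversed. Counts of called matrix genes are given by alternative, with the cause of each change not tested. Hormones gave 25 (methods' t-test) to 33, LeGO-1/6 against LeGO-GFP 27 to 31, and LeGO-1/6 against LeGO-DCR 28 to 32. For siPINC1/6 −LH (14 in the report) the count was 2 with 75th percentile scaling and with the authors' table (0.576% and 0.814% of all genes). It was 0 with the methods' t-test and the replicate block, which both called 0 of all 20145 genes. For siPINC −LH (0) it was 1 with bright probes, 3 with normexp, 6 with 1 fit of 24 arrays, 6 with a slide term and 2 with a trended robust prior. The shares of all genes were 0.0153%, 0.71%, 2.61%, 2.91% and 0.427%. For siPINC1/6 against siPINC −LH (0) it was 15, 13, 14, 16 and 14 under the same alternatives (5.46%, 4.55%, 8.09%, 8.92% and 5.81% of all genes). With quantile normalization within the fit it was 2 (0.288%). For siPINC1/6 +LH (7) it was 4 with the 75th percentile, the t-test and the block (3.27%, 2.49% and 2.8% of all genes). For siPINC +LH (0) it was 1 with bright probes, a slide term or the trended prior, and 3 with 1 fit. For siPINC1/6 against siPINC +LH (4) it was 1 with the 75th percentile and the authors' table, and 0 with the t-test and the block. The siPINC1/6 interaction (13) gave 8 with the authors' table; the siPINC interaction (0) gave 3 with bright probes, 2 with normexp, 4 with the trended prior, and 1 with mean probes, 1 fit or quantile within the fit. Leaving out 1 array gave 27 to 31 for hormones, 27 to 30 and 29 to 32 for LeGO-1/6 against LeGO-GFP and LeGO-DCR, 0 to 0 for siPINC1/6 −LH, 3 to 7 for siPINC1/6 +LH, 0 to 2 for siPINC1/6 against siPINC +LH, 8 to 13 and 0 to 1 for the siPINC1/6 and siPINC interactions, and 0 elsewhere. A lone array left in a group was assumed to vary like the other groups. Same-numbered +LH siRNA arrays correlated at −0.2 to 0.111 in their deviations (2 of 9 closest to their own number). Lentivirus arrays did so at −0.0471 to 0.164 (3 of 9), so replicate numbers showed no clear pairing of +LH arrays. Same-numbered −LH arrays correlated at 0.0507 to 0.0982 (6 of 6), and the others at −0.0982 to −0.0507. With 2 arrays a group, deviations in a group mirror each other, so pairing of −LH arrays cannot be told from these values. With the replicate block the counts were 29 (hormones), 29 and 30 (LeGO-1/6 against LeGO-GFP and LeGO-DCR), 10 (siPINC1/6 interaction) and otherwise as given or 0. The shares of all genes in these 4 were 38.1%, 42.8%, 42.6% and 4.52%. The t-test was not run for the interactions. A difference from a group on no array well above background has no exact size.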
